A study of Mus musculus with 6 samples.

Results

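The normal juvenile right atrium (RA) was described from 3 RNA-seq libraries of sham-operated mice, which are named sham 1, sham 2 and sham 3 after their replicate numbers. All protein-coding genes of the deposited table were taken, 21842 of 54093 rows. They were ranked by their mean FPKM over these 3 of the 6 libraries of the series. FPKM is fragments divided by gene length and by the library size that the authors used. The mice were C57BL/6, genotype WT, had a sham operation at P7 (a midline laparotomy under isoflurane without the fistula that causes volume overload) and gave their RAs at postnatal day 21 (P21). The study used pups of either sex, and the labels give no sex for a library. Nothing states whether a library came from 1 animal or from pooled animals, so the spread between libraries may be partly technical. A sham pup has had surgery and anaesthesia, and an RA sample holds myocardium with its vessels, nerves, valve and node tissue and blood. In bulk RNA, fewer cells of a type and less RNA per cell cannot be told apart.

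The RA is the low-pressure chamber that receives venous blood, houses the sinoatrial node and releases natriuretic peptides when it is stretched. Its myocytes build the same sarcomere as those of the ventricle, but from partly different gene copies, such as the atrial myosin light chains. During the first weeks after birth rodent myocytes replace fetal copies of several sarcomere genes by adult ones, leave the cell cycle and come to rely on mitochondrial oxidation. The level of a family of such copies therefore shows both the chamber and the stage of a sample.

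The libraries held 16494342, 17237903 and 16826136 fragments on genes, and 97.8% to 98.1% of them lay on protein-coding genes. For a gene of 1 kb, 1 FPKM came from 15.6, 17.2 and 16.3 fragments in sham 1, 2 and 3. The library sizes implied by the FPKM were thus 1.556e+07, 1.724e+07 and 1.628e+07. They lay below the fragments on genes in sham 1 and sham 3, but not in sham 2. The FPKM of sham 1 and sham 3 are therefore higher than division by these fragments would give. The orders between libraries that follow are on the deposited scale unless stated, and so carry this scaling. A mean FPKM of at least 1 was reached by 11098 protein-coding genes, or 50.8%, with 362 at 100 or more, 26 at 1000 or more and 5485 at 0 in all libraries. With 1 group and 3 libraries there is no contrast to test, and an exact sign-flip permutation test over 3 libraries cannot give a p-value under 0.25. Differences between genes and between libraries are therefore given as values, each set against the counting error of its fragments (exact 95% Poisson intervals, which cover counting error only).

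The 3 libraries were not alike in 3 respects. Sham 1 stood apart by gene length: its log2 level over the mean of the others had a median of 0.53 in the 273 expressed genes of up to 1 kb, of 0.29 between 1 and 2 kb and of -0.11 in the 3524 genes over 6 kb, while sham 2 and sham 3 differed by at most 0.01 in every length class. Sham 2 was the only library with fragments on Ddx3y, a Y-linked RNA helicase gene, at 27.3 FPKM against 0 and 0. It held next to no Xist, the RNA that silences an X chromosome, at 0.0097 FPKM against 28.2 in sham 1 and 40.8 in sham 3. By these genes sham 2 alone was male, so sex cannot be told apart from other traits of sham 2 in what follows. Sham 1 also carried the most blood RNA, since the summed level of 5 red cell genes was 6972, 2382 and 1198 FPKM in sham 1, 2 and 3. For several of the results that follow sham 1, the value with the length trend of each library removed or without sham 1 is given as well.

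**Figure D1:**
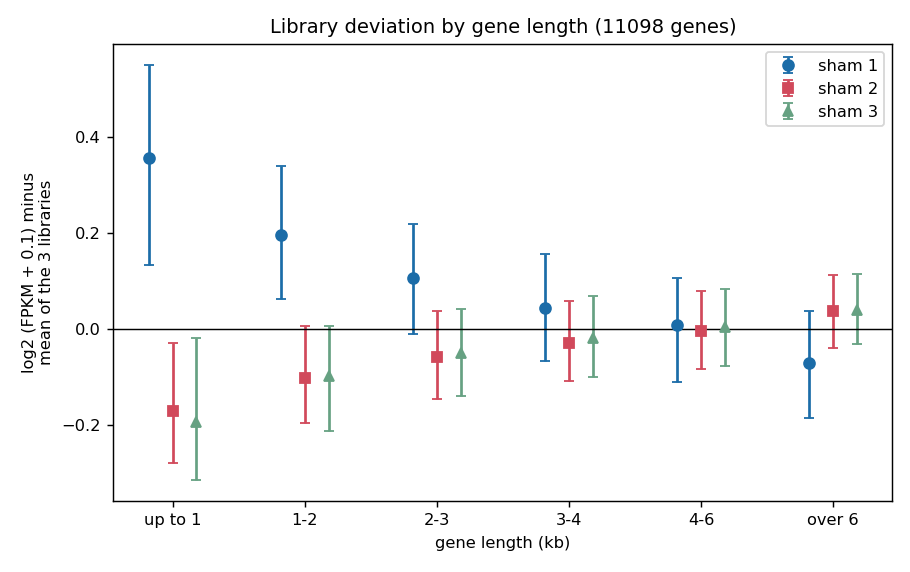
Deviation of each sham library from the mean of the 3 libraries on the log2(FPKM + 0.1) scale (vertical axis) by gene length in kilobases (horizontal axis), for the 11098 expressed genes (mean FPKM of 1 or more). Points are medians and bars run from the lower to the upper quartile of genes; sham 1 lies above the others in genes up to 3 kb and below them in genes over 6 kb.

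The tissue label was checked against its markers. Bmp10, a secreted growth factor of the BMP family made by right atrial myocytes, was read at 1528, 1499 and 1702 FPKM. All of the 8 atrial myocyte genes examined were above 1 FPKM, and their summed level was 18704, 12635 and 12600 FPKM in sham 1, 2 and 3. Of 5 ventricular markers, 4 had a mean above 1 FPKM and the transcription factor gene Irx4 did not, with at most 0.26 FPKM. Hey2 and Irx5, the other transcription factors of that list, stood at 1.54, 1.47 and 1.56 FPKM and at 0.719, 1.21 and 1.55 FPKM. Among markers of neighbouring tissues, Myh1 (skeletal muscle myosin), Ucp1 (brown fat uncoupling protein) and Ptcra (thymocyte receptor chain) were listed at 0 in all libraries, Adipoq, the hormone of white fat, stood at 0.14, 0 and 0.489 FPKM, and the T cell receptor component Cd3e at no more than 0.0301 FPKM. Other members of these lists were not at 0: the lipid droplet gene Cidea, counted among brown fat markers, had 7.57, 4.73 and 6.54 FPKM, Pvalb (parvalbumin, a calcium buffer of fast muscle) 6.11, 4.46 and 3.36 FPKM, and the airway gene Scgb1a1 0.540, 2.56 and 0 FPKM. The ventricular light chains Myl2 and Myl3 were present and are described with their families.

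The proximal promoters of 5 genes known for their expression in atrial myocytes are shown here, as the regulatory sequence next to the start sites of genes on which the description of the RA turns. They come from RefSeq (build GRCm38.p6) and run from 250 bases before the annotated start to 50 after it, 5′ to 3′ on the strand of the gene. For each gene the start nearest its outer 5′ end was taken, which need not be the start used in the RA. Capitals mark 5 motifs searched by their letters or name: the core promoter box TATAAA on the strand of the gene only, and on both strands GATAAG (bound by Gata4 and its kin), AGGTGT (bound by T-box factors), GGAATG (bound by TEAD factors) and the CArG box (bound by serum response factor).
Nppa promoter, chr4:148000472-148000771, plus strand: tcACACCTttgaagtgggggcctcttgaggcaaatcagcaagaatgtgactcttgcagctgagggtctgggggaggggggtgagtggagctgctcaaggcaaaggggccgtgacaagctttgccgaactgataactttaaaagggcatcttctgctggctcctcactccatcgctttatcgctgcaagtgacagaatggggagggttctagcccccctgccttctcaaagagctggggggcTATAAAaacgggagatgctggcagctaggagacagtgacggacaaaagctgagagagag
Nppb promoter, chr4:147985650-147985949, plus strand: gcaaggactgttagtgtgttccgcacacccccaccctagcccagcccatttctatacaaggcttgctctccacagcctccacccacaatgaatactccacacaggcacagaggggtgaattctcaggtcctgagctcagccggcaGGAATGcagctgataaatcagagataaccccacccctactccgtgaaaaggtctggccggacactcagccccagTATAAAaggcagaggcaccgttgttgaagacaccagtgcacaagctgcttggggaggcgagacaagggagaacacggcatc
Myl7 promoter, chr11:5898733-5899032, minus strand: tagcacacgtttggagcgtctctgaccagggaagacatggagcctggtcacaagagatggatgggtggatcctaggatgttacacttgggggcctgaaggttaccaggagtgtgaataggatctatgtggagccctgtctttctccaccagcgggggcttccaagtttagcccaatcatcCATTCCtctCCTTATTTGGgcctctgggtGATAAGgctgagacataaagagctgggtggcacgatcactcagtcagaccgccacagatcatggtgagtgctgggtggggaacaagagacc
Myl4 promoter, chr11:104550413-104550712, plus strand: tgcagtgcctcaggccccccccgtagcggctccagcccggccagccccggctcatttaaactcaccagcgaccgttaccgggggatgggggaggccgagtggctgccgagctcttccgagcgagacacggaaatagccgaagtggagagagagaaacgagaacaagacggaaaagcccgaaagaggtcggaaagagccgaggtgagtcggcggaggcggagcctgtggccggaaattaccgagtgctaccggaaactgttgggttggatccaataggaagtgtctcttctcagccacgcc
Bmp10 promoter, chr6:87428744-87429043, plus strand: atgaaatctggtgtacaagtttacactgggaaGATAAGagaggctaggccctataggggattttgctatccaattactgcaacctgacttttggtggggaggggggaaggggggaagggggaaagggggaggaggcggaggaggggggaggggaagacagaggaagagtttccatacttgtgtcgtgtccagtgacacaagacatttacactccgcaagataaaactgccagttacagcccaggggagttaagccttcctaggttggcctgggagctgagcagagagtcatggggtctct

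In these windows Myl7 held a CArG box from -61 to -52, next to a GGAATG match on the other strand from -70 to -65 and a GATAAG from -41 to -36, where 0 is the annotated start. Nppb held TATAAA from -31 to -26 and GGAATG from -105 to -100, Nppa held TATAAA from -9 to -4 and AGGTGT on the other strand from -248 to -243, and Bmp10 a GATAAG from -218 to -213. The Myl4 window lies at the 5′ end of a gene that runs from 104550663 to 104595753, and it matched none of the motifs. Whether this start is the one used in the RA was not tested. Among the 16379 of 21842 protein-coding genes with a promoter in the RefSeq table, 8.58% held TATAAA, 6.69% GATAAG, 12.9% AGGTGT, 13.2% GGAATG and 1.53% a CArG box. Of the 30 among the 50 most abundant genes with a promoter, 5 held TATAAA, 6 GATAAG, 3 AGGTGT, 7 GGAATG and 3 a CArG box. A motif of the MEF2 factors (searched on both strands) was in 0.50% of all promoters and in 0 of these 30. A match is a stretch of letters and not a shown binding site.

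Mitochondrially encoded genes and sarcomere genes were among the most abundant protein-coding genes of the sham RA. The 50 most abundant genes held 46.8%, 46.2% and 48.5% of the protein-coding FPKM in sham 1, 2 and 3, and the 13 mitochondrially encoded genes held 29.6%, 31.7% and 34.6%. By fragments, which do not divide by length, these shares were 27.0%, 25.3% and 26.9% for the 50 genes and 13.6%, 13.4% and 15.0% for the mitochondrial genes. Of the top 30 genes, 29 were among the first 50 of every library, and 42 of the top 50 were. These counts are partly set by the choice of genes, as the same libraries gave the mean. Ranks moved for some genes: Hba-a1 stood at 12, 25 and 56 and mt-Nd3 at 27, 45 and 206 in sham 1, 2 and 3. The cut at rank 50 is not a break, as rank 50 (Mgp) had a mean of 498 FPKM and rank 51 (Rplp0) 496 FPKM.

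**Figure D2:**
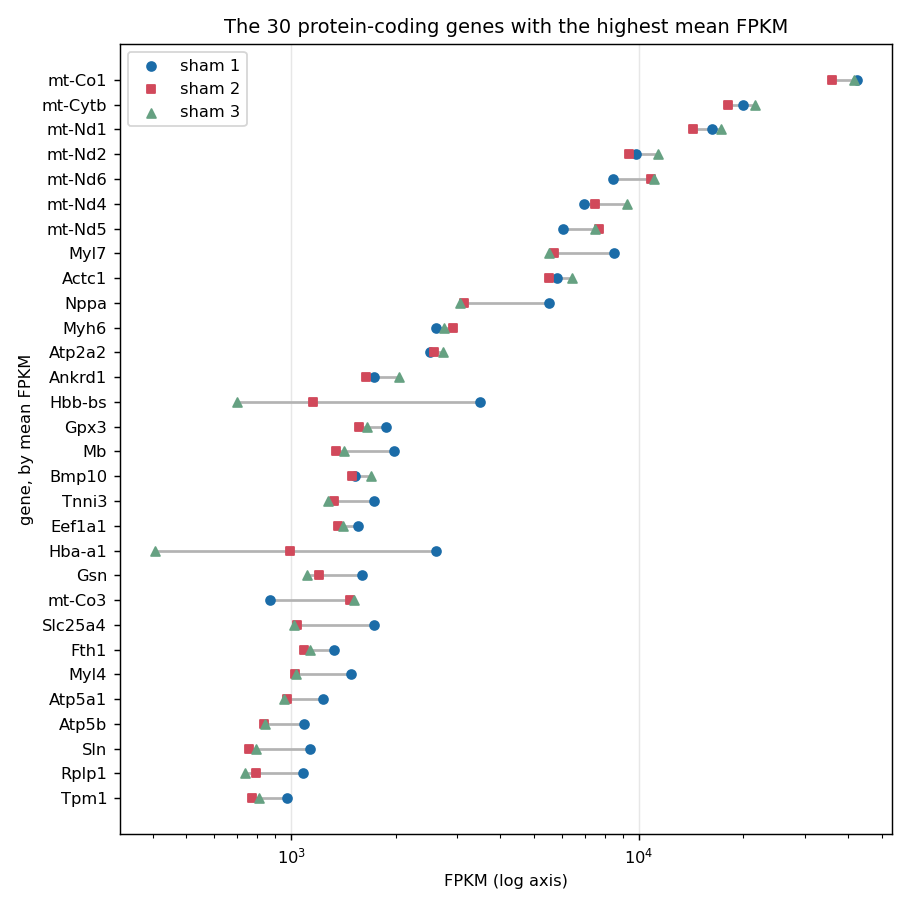
FPKM on a log axis (horizontal) of the 30 protein-coding genes with the highest mean FPKM, from top to bottom by mean, with a symbol for each sham library and a line from the lowest to the highest. The first 7 genes are mitochondrially encoded, and Hbb-bs and Hba-a1 have the widest lines, with sham 1 highest.

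Genes of oxidative phosphorylation encoded in the mitochondrion took ranks 1 to 7. mt-Co1 (ENSMUSG00000064351), the catalytic subunit of cytochrome c oxidase, was read at 42543, 35913 and 41659 FPKM, or 40038 ± 3600 (SD, n = 3). mt-Cytb of complex III followed at 19930, 18026 and 21631 FPKM, and mt-Nd1 of complex I at 16265, 14308 and 17242 FPKM. The groups of values do not separate the libraries in 1 order, as sham 2 was lowest in these 3 genes while sham 1 was lowest in mt-Nd6, at 8422, 10856 and 11029 FPKM. mt-Nd6 lies on the other strand of the mitochondrial genome from these genes, and whether the counting used strand is not given in the sources used here, so its reads cannot be told apart from those of the strand opposite.

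The mitochondrial genes were far from even, although the mitochondrion transcribes them as long joint precursors. mt-Co2 was read at 555, 421 and 679 FPKM, mt-Atp6 at 433, 388 and 525 FPKM, and mt-Nd3 at 1112, 499 and 154 FPKM. mt-Nd3, a subunit of complex I, differed 7.22-fold between the highest and the lowest library, more than any other of the 13 genes. In these 3 genes, 97.6% to 99.5% of the 100-base stretches also occur in the transcript of another gene, and so do 99.9% of those of mt-Co3, at 871, 1476 and 1519 FPKM, whereas mt-Cytb and mt-Nd1 share none. A block of 7 pseudogene rows on chromosome 1 between 24611535 and 24616197 summed to 1844, 1056 and 1618 FPKM, and how fragments with several matches were counted is not given in the sources used here. The levels of these genes are therefore uncertain.

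Nuclear genes of the energy supply were also among the first 30. Slc25a4, the adenine nucleotide translocase of muscle, was read at 1727, 1042 and 1017 FPKM, and myoglobin (Mb), the oxygen store of muscle, at 1973, 1343 and 1420.5 FPKM. The ATP synthase subunits Atp5a1 and Atp5b had means of 1054 ± 157 and 922 ± 145 FPKM (SD, n = 3). Of the 13 genes listed for energy transfer and oxygen, all were above 1 FPKM and 12 were highest in sham 1, against 44.2% of all 11098 expressed genes. With the length trend removed, 10 of the 13 were, against 38.6% of all. The ratio between the highest and the lowest library was then 1.53 for Slc25a4 and 1.20 for Mb. The glutathione peroxidase gene Gpx3, whose product is secreted, was read at 1879, 1563 and 1652 FPKM, and the ferritin heavy chain Fth1 at 1325, 1087 and 1137 FPKM.

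Among secreted factors the natriuretic peptide Nppa, the RA's own hormone, had the highest level, and Ankrd1, a stretch-responsive nuclear protein of the sarcomere, stood beside it among the first 13 genes. Nppa (ENSMUSG00000041616, chromosome 4, 148000722 to 148002079) was read at 5513, 3152 and 3051 FPKM and Nppb at 575, 528 and 596 FPKM. By FPKM, Nppa was high in sham 1 and alike in sham 2 and sham 3, whereas Nppb was close in all. With the length trend removed, the ratio between the highest and the lowest library of Nppa was 1.32 in place of 1.81. That removal is not reported for Nppb, which is also shorter than 1 kb. Its log2 level in sham 1 over the mean of the others was 0.033, below the median of 0.53 in expressed genes of up to 1 kb. The contrast between Nppa and Nppb is therefore shown for the listed FPKM only. The exons of Nppa overlap those of another gene over 61.5% of their length, a limit on its level. Nppc, the endothelial peptide of the family, stood at 0.370, 0 and 0 FPKM. The machinery around the peptides was present: Corin, the protease that cleaves pro-ANP, was read at 91.2, 88.6 and 85.4 FPKM, Pam, an enzyme that amidates peptides and sits in atrial granules, at 534, 497 and 510.3 FPKM, the receptor Npr1 at 6.80, 9.84 and 9.14 FPKM and the clearance receptor Npr3 at 63.4, 65.3 and 76.6 FPKM.

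Ankrd1 was read at 1731, 1645 and 2045 FPKM. Sham 3 was highest, and the 3 libraries lay within 1.24-fold. The sarcoplasmic reticulum pump Atp2a2 had 2510, 2582 and 2743 FPKM, with the 3 libraries within 1.09-fold. Of the top 30, Hbb-bs and Hba-a1 are hemoglobin chains, described with the blood genes, and Eef1a1 and Rplp1 are parts of the translation machinery.

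The sarcomere of the P21 sham RA was built from adult and atrial gene copies. In the thick filament, Myh6 (alpha myosin heavy chain) had 2605, 2920 and 2758 FPKM and Myh7 (the beta chain of the fetal and slow form) 10.7, 12.4 and 12.4 FPKM. Myh6 thus made up 99.6% of the family on average, and the share of Myh7 in the fragments of the pair ran from 0.523% (95% exact interval 0.496% to 0.551%) in sham 1 to 0.572% (0.546% to 0.600%) in sham 3. The log2 ratio of Myh6 over Myh7 was 7.86 ± 0.065 (SD, n = 3), and Myh6 was far above Myh7 in every library. The myosin binding protein gene Mybpc3 exceeded the skeletal Mybpc2 at least 108-fold in every library.

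The light chains showed the atrial choice. The regulatory chain Myl7 (ENSMUSG00000020469, chromosome 11, 5896637 to 5898782, 590 bases of exons) was read at 8501, 5701 and 5531 FPKM and the ventricular chain Myl2 (ENSMUSG00000013936) at 60.4, 2.02 and 56.0 FPKM. Myl2 was near absent in sham 2 and present in the other two, with a share of the pair's fragments of 2.30% (2.19% to 2.40%), 0.117% (0.091% to 0.148%) and 3.24% (3.09% to 3.39%), so sham 2 is separated by far more than counting error. The 1.54-fold range of Myl7 was 1.12-fold with the length trend removed. The essential chain Myl4 was read at 1484, 1029 and 1030.05 FPKM, Myl1 at 229, 160.5 and 168 FPKM and the ventricular Myl3 at 246, 117 and 177 FPKM. Myl3 followed the order of Myl2 over the libraries, but so did Myl4 and Myl1, so the order is not particular to the ventricular chains. Sham 1 was the highest library in 44.2% of all expressed genes. Myl4 was the highest of its family in every library, on a table length of 4637 bases that is far above the 943 of its principal transcript and so lowers its FPKM.

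In the thin filament, Actc1 (cardiac alpha-actin) had 5820, 5503 and 6446 FPKM and Acta1 (the skeletal form, also fetal in heart) 0.837, 0.415 and 3.48 FPKM. Acta1 differed between libraries, on only 20, 11 and 87 fragments, while Actc1 did not by more than 1.17-fold. Tnni3 (cardiac troponin I) was read at 1736, 1325 and 1275 FPKM and the fetal Tnni1 at 3.84, 4.08 and 4.90 FPKM. Tnnc1, cardiac troponin C, had 1064, 710 and 764 FPKM, and Tnnc2, whose exons overlap another gene over 74.0% of their length, was listed at 0. Tnnt2, cardiac troponin T, had 485, 414 and 425 FPKM against at most 4.02 FPKM for Tnnt1. Tropomyosin was mainly Tpm1, at 86.1% ± 1.75 of the family's FPKM (SD, n = 3), with Tpm4 at 80.1, 83.2 and 82.8 FPKM and Tpm2 and Tpm3 lower.

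Of the other sarcomere and Z-disc genes, 13 of 14 were above 1 FPKM. The titin cap Tcap had 641, 502 and 477 FPKM, the small heat shock protein Cryab 551, 502 and 513 FPKM, the alpha-actinin Actn2 325, 369.5 and 363 FPKM, and Ttn, the giant spring of the sarcomere, 28.7, 29.0 and 32.5 FPKM. Tcap, Csrp3 and Cryab were highest in sham 1, and Actn2, Ldb3 and Flnc were lowest there. This split is given without removal of the length trend of sham 1. Tcap and Cryab, at 948 and 1479 bases, are shorter than Actn2 at 3795 bases.

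Across 44 families of related genes, written down from 115 genes, the same gene led in all 3 libraries in 42. The leading gene exceeded the next at least 2-fold in every library in 32 families and at least 10-fold in 17. In 10 further families the lead was the same but under 2-fold in at least 1 library, and in 2 families the lead changed. With the length of the principal transcript in place of the table's length, 42 families again had the same lead in all libraries, and in 42 of 44 it was the same gene as by FPKM, with Hk1 in place of Hk2 and Ppard in place of Ppara. The median log2 ratio of the leading over the next gene was 2.79 over the families.

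**Figure D3:**
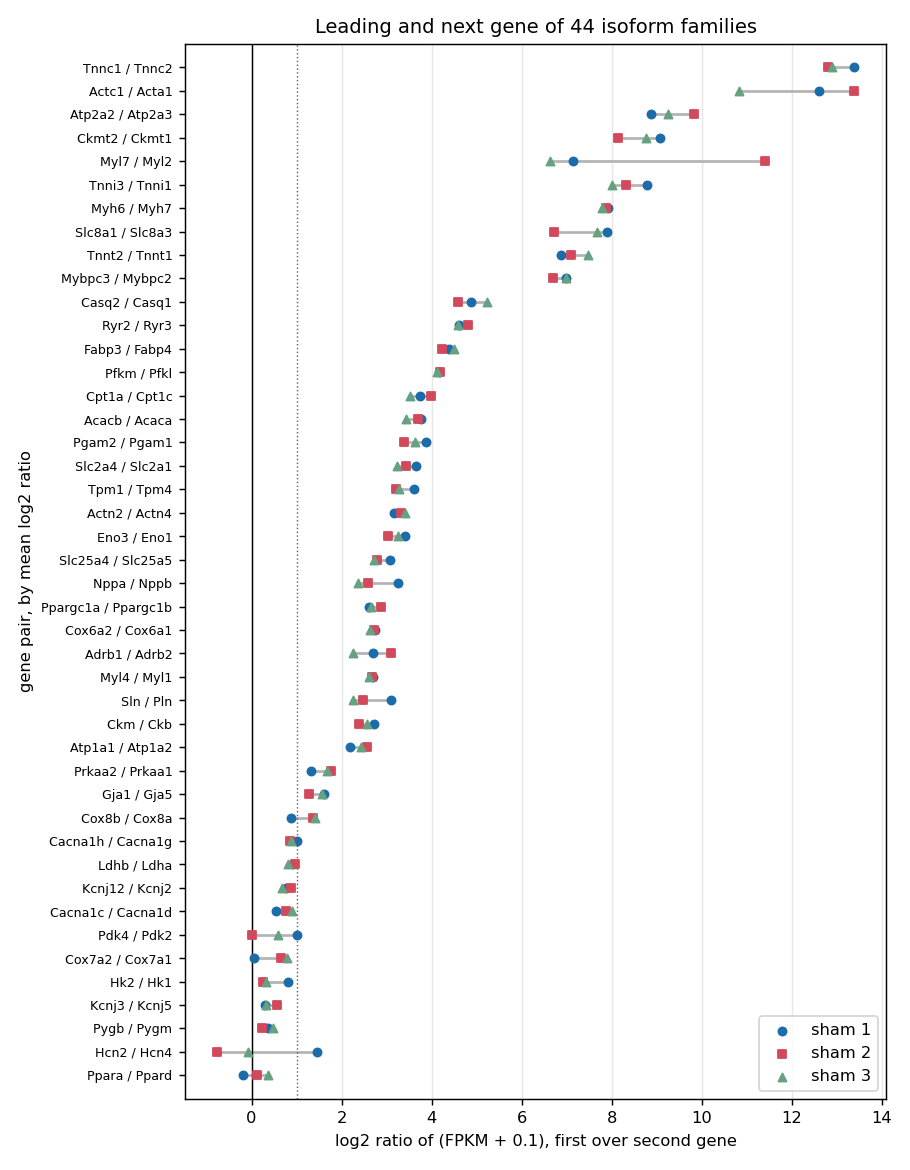
Log2 ratio of the leading over the next gene of 44 families (horizontal axis, on FPKM + 0.1), with families ordered by their mean ratio and a symbol for each sham library. The solid line marks equal levels and the dotted line a 2-fold lead; Hcn2 over Hcn4 and Ppara over Ppard fall on both sides of the solid line.

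Calcium cycling genes followed the cardiac pattern with the atrial pump inhibitor on top. Sln (sarcolipin, the atrial inhibitor of the calcium pump) was read at 1134, 759 and 794 FPKM and Pln (phospholamban) at 133, 136 and 166 FPKM. Sln led in every library by at least 4.79-fold, and 64.7% of the exon length of Pln overlaps another gene, a limit on that ratio. Atp2a2 exceeded Atp2a3, the next pump gene, by at least 480-fold, Ryr2 (the release channel of heart) exceeded Ryr3 with 46.8, 59.1 and 59.4 FPKM against 1.82, 2.02 and 2.39 FPKM, and Casq2, the calcium store protein, had 413, 352 and 384 FPKM. Of the 18 listed calcium genes 17 were above 1 FPKM and the exception was Ryr1, the release channel of skeletal muscle, at no more than 0.0186 FPKM.

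Several ion channel families had members near each other by FPKM. The acetylcholine-gated potassium channel of the atrium had Kcnj3 at 111, 145 and 143 FPKM and Kcnj5 at 90.9, 97.5 and 114 FPKM. The inward rectifiers Kcnj12 and Kcnj2 had 18.5, 16.4 and 16.2 FPKM and 10.9, 8.83 and 10.1 FPKM, and by fragments Kcnj2 was ahead, since it is the longer gene. The L-type calcium channel Cacna1c had 5.15, 6.41 and 7.07 FPKM and Cacna1d, the isoform of node and atrium, 3.52, 3.70 and 3.73 FPKM. The table length of Cacna1c, 21191 bases, is far above the 6585 of its principal transcript and lowers its FPKM. By principal transcript length the mean log2 ratio of Cacna1c over Cacna1d was 1.88 in place of 0.74. T-type channels were represented by Cacna1h at 11.4, 16.0 and 16.0 FPKM and Cacna1g at 5.61, 8.83 and 8.61 FPKM. Connexin 43 (Gja1) had 38.8, 40.6 and 45.1 FPKM, connexin 40 (Gja5), the atrial one, 12.7, 16.8 and 15.2 FPKM and connexin 45 (Gjc1) 4.19, 5.28 and 5.16 FPKM, in the same order in every library.

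The pacemaker channel family changed lead. Hcn2 was read at 8.57, 5.61 and 4.92 FPKM and Hcn4, the main pacemaker channel, at 3.07, 9.61 and 5.18 FPKM. Hcn2 led in sham 1, Hcn4 led in sham 2, and in sham 3 they were close. Of the fragments of the pair, Hcn4 held 40.7% (95% exact interval 37.1% to 44.4%), 76.6% (74.3% to 78.9%) and 66.8% (63.4% to 70.2%) (Hcn4 is the longer gene), and the log2 ratio of Hcn2 over Hcn4 was 1.45, -0.77 and -0.07. Without sham 1 its mean was -0.42 in place of 0.20. PPAR genes were the other change, with Ppara at 4.47, 5.25 and 5.44 FPKM and Ppard at 5.15, 4.79 and 4.21 FPKM, where the libraries overlap.

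Fuel genes were led by heart and muscle copies, with exceptions. Fabp3, the fatty acid binding protein of heart, had 968, 635 and 785 FPKM. Ckmt2 of the mitochondrial creatine kinases had 343, 285 and 257 FPKM against at most 0.906 FPKM for Ckmt1. By FPKM, Eno3, Pgam2 and Pfkm led the glycolytic families by at least 8.23-fold, 10.4-fold and 17.6-fold. By principal transcript length their mean log2 ratios were 1.98, 3.59 and 3.54 in place of 3.23, 3.63 and 4.16. Of the next genes, Eno1 shares 59.0% and Pgam1 39.7% of their 100-base stretches with another gene, a limit on these leads. Glycogen phosphorylase was split between Pygb (212, 203 and 220.4 FPKM) and Pygm (164, 173 and 159 FPKM), the brain and muscle forms, as was hexokinase between Hk2 (25.5, 24.8 and 22.6 FPKM) and Hk1 (14.6, 20.7 and 18.1 FPKM). Cytochrome oxidase 7a was close too, with Cox7a2, the widespread form, at 354, 232 and 216 FPKM and Cox7a1, the muscle form, at 341, 146 and 126 FPKM; the 2.71-fold range of Cox7a1 was 1.98-fold with the length trend removed. Of the pyruvate dehydrogenase kinases, which hold back glucose oxidation, Pdk4 was variable at 140, 77.3 and 119 FPKM and Pdk2 less so at 68.8, 76.6 and 78.6 FPKM. Cpt1a, the liver and fetal form of the fatty acid gate enzyme, was read at 16.4, 16.5 and 15.0 FPKM and Cpt1b, the muscle form, at 0.515, 0.310 and 0.219 FPKM. The exons of Cpt1b overlap another gene over 81.4% of their length and 91.1% of its 100-base stretches are shared, so its level cannot be read from this table.

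Among transcription factor genes of the heart, Nkx2-5 had 72.8, 73.5 and 61.5 FPKM, Gata4 27.2, 31.6 and 31.6 FPKM, Tbx5 40.4, 49.5 and 45.9 FPKM and Tbx20 29.7, 43.2 and 40.1 FPKM. Hopx was the highest of the 21 listed, at 203, 132 and 146 FPKM, and Hand1, a ventricular gene of the embryo, was listed at 0. Nr2f2, the atrial identity factor, stood at 6.49, 7.58 and 8.22 FPKM. Of the 21 genes 17 were above 1 FPKM.

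The 8 cell cycle genes listed had a mean under 1 FPKM each, with Mki67, the proliferation antigen, at 0.677, 1.10 and 0.946 FPKM and Ccnb1, a mitotic cyclin, at 0.274, 0.248 and 0.218 FPKM. Of 7 protein-coding genes of fetal growth, 3 were above 1 FPKM: the imprinted genes Peg3 at 15.02, 19.3 and 17.8 FPKM, Cdkn1c, a brake of the cell cycle, at 11.2, 11.2 and 13.0 FPKM and the growth factor Igf2 at 3.44, 6.34 and 5.94 FPKM.

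Cells other than myocytes were seen by their markers. The 7 fibroblast genes summed to 833, 727 and 761 FPKM and were led by Dcn (decorin) at 313, 254 and 278 FPKM. The vascular endothelial genes summed to 204, 186 and 198 FPKM, the endocardial genes to 113, 106 and 130 FPKM and the macrophage genes to 249, 205 and 187 FPKM. Neuronal markers were low apart from Dbh (dopamine beta-hydroxylase), which stood at 9.74, 8.94 and 9.58 FPKM, while Th, the first enzyme of the same pathway, reached no more than 0.270 FPKM. B cell and T cell genes were under 1 FPKM on average.

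**Figure D4:**
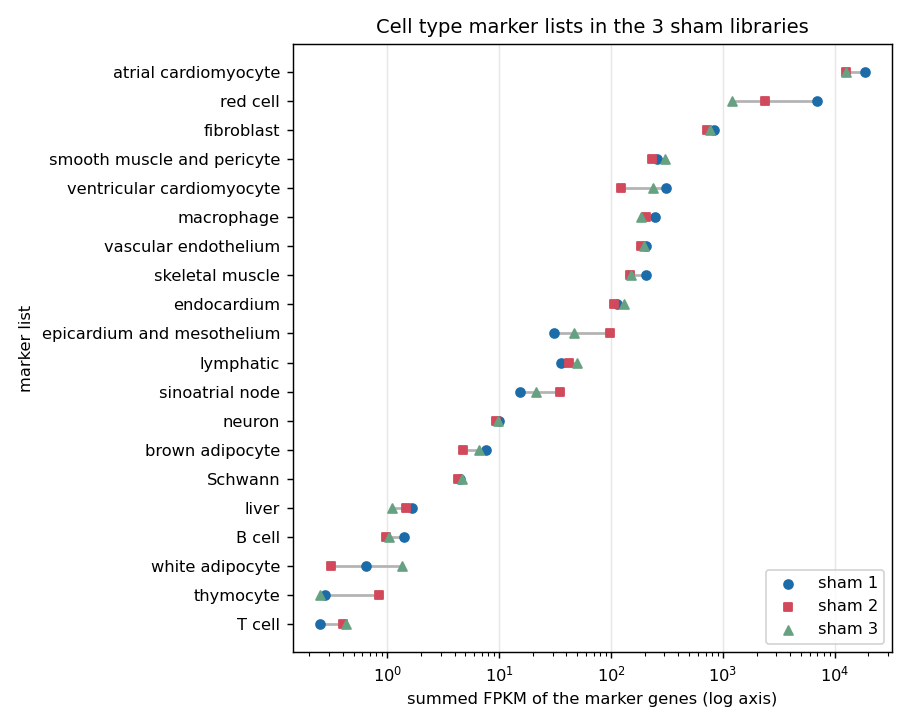
Summed FPKM of each cell type marker list (horizontal, log axis) in the 3 sham libraries, with lists ordered by their mean and a line from the lowest to the highest library; the lung epithelium list, at 0 in sham 3, and a list of atrial side are left out. Red cell genes are highest in sham 1, and epicardial and sinoatrial genes are highest in sham 2.

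Between the sham libraries most genes were close. The SD of log2(FPKM + 0.1) had a median of 0.15 over the 11098 genes, and the coefficient of variation (CV) a median of 10.7% where counting alone gives 4.38%. A moment estimate of the biological coefficient of variation on the recovered fragments was 11.6%. The highest and the lowest library were at least 2-fold apart in 317 genes, or 2.86%, and their counting intervals did not overlap in 6282 genes, or 56.6%. All of the top 30 genes had intervals apart, 18 of them highest in sham 1, which was the highest library in 44.2% of all expressed genes. At such levels small differences are enough to part the intervals, as the median counting CV was 1.19% in the 362 genes at 100 FPKM or more. The count for the top 30 therefore does not show that abundant genes vary more. The correlation of log2 values across genes was 0.974 between sham 1 and sham 2, 0.979 between sham 1 and sham 3 and 0.984 between sham 2 and sham 3, as a description across genes that are not independent. Without sham 1 the median SD was 0.084, the count of 2-fold genes 106 and the count of genes beyond counting error 2200. A range over libraries can only narrow when a library is left out, so these counts are not like those over 3 libraries. Without sham 2 the same values were 0.144, 171 and 4505, and without sham 3 they were 0.147, 198 and 4666.

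**Figure D5:**
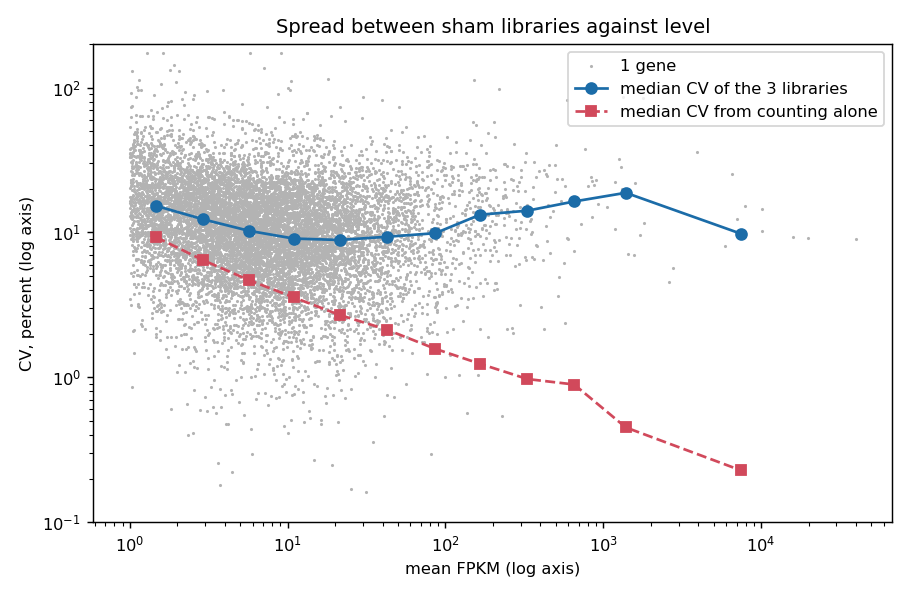
CV in percent of each gene over the 3 sham libraries (vertical, log axis) against its mean FPKM (horizontal, log axis), for the expressed genes, with the median CV in steps of 2-fold in level and the median CV that counting alone gives. Above about 100 FPKM the counting line lies far below the measured median, which was 12.7% in the 362 genes at 100 FPKM or more.

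Of the 2-fold genes, 171 were highest in sham 1, 77 in sham 2 and 69 in sham 3. After the length trend was removed, 260 genes were 2-fold apart and 80, 98 and 82 were highest in sham 1, 2 and 3. Among the 2-fold genes the excess of sham 1 thus went with gene length. Over all 11098 expressed genes sham 1 was still the highest library in 38.6% after the removal, against 30.7% for sham 2 and 30.7% for sham 3. The part of RNA quality or library preparation in the excess of sham 1 was not tested. Of the 20 most variable genes with a mean of at least 5 FPKM, 19 were the same after the removal.

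These 20 genes fell into a few groups. The widest ranges were those of the Y-linked Ddx3y and Eif2s3y, read in sham 2 alone, and of Myl2 (28.5-fold). A group of red cell genes followed a common order. Hbb-bs (adult beta-globin) was read at 3490.1, 1154 and 698 FPKM, Hba-a1 (alpha-globin) at 2614.5, 990 and 406 FPKM, and Alas2, the first enzyme of red cell heme synthesis, at 59.7, 18.999 and 11.2 FPKM. All 5 red cell genes had sham 1 highest and sham 3 lowest, an order that 21% of all expressed genes shared. The platelet genes Gp9 (18.1, 1.12 and 1.95 FPKM) and Ppbp (41.9, 4.07 and 8.28 FPKM) and the neutrophil genes S100a8 (4.54, 0.0836 and 0.796 FPKM) and S100a9 (4.56, 0.111 and 2.94 FPKM) were also highest in sham 1. Globin copies share 54.8% to 74.5% of their 100-base stretches with another gene, so their split between copies is uncertain. With the length trend removed, Hbb-bs still differed 3.64-fold, Gp9 10.9-fold, Ppbp 7.50-fold, S100a8 18.5-fold and S100a9 16.1-fold. The folds of S100a8 and S100a9 are uncertain and depend on the added 0.1. Their sham 2 levels lie below 0.174 FPKM, which 3 fragments give there in a gene of 1 kb. Both genes are under 5 FPKM and so are not among the 20, and only 2 of the 8 neutrophil genes listed had a mean of at least 1 FPKM.

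Sham 2 stood out by 2 other groups. Of the genes of epicardium and mesothelium, the outer lining of the heart, Upk3b was read at 11.9, 38.3 and 19.5 FPKM, Msln (mesothelin) at 10.6, 32.6 and 13.4 FPKM and Wt1 at 1.36, 3.50 and 2.36 FPKM. All 5 genes of the list had sham 2 highest and sham 1 lowest, an order found in 18.5% of all expressed genes. The list summed to 30.8, 97.4 and 46.3 FPKM, and the mesothelial gene Lrrn4 and the complement gene C3 (9.94, 39.4 and 15.2 FPKM) were among the 20 most variable genes with the same order. Genes of the sinoatrial node, the pacemaker, had 6 members above 1 FPKM, all highest in sham 2 against 27.8% of all expressed genes, and 5 with sham 1 lowest. Shox2, a transcription factor of the node, was read at 2.54, 6.10 and 3.69 FPKM and Vsnl1, a calcium sensor found there, at 3.65, 9.64 and 5.15 FPKM. The share of node or surface tissue in each sample was not measured.

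Several interferon and early response genes were highest in sham 3. Gbp4, an interferon-induced GTPase, was read at 12.2, 4.99 and 22.7 FPKM. Of the 10 interferon genes listed, all above 1 FPKM, 7 were highest in sham 3 against 28% of all expressed genes, among them Ifit1 at 23.8, 26.7 and 38.9 FPKM, and 3 had sham 3 highest and sham 2 lowest against 10.7%. Isg15 was instead highest in sham 1, at 46.5, 29.7 and 30.5 FPKM, and the summed level of the 10 genes was 318, 253 and 313 FPKM, close between sham 1 and sham 3. Of 11 expressed immediate early genes, which respond to stress within minutes, 8 were highest in sham 3, with Atf3 at 3.13, 4.69 and 9.38 FPKM, Egr1 at 4.21, 5.65 and 9.85 FPKM and Nr4a1 at 6.91, 8.93 and 16.4 FPKM, while Dusp1 was highest in sham 1. The circadian clock gene Arntl had 1.40, 1.26 and 0.955 FPKM and its counterpart Per2 5.93, 8.23 and 8.92 FPKM. Time of collection and handling of the tissue were not given in the sources used here and their part in these differences was not tested.

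Further variable genes were Myl2, described with its family, the widely used genes Sumo2 (4.85, 2.84 and 23.9 FPKM), Ndufa12 (92.8, 40.5 and 19.8 FPKM) and Rpl21 (17.7, 3.89 and 4.39 FPKM), and Gm21887, all of whose 100-base stretches are shared with another gene. The least variable genes with a mean of at least 100 FPKM were Cpe, a hormone-processing carboxypeptidase, at 226, 227 and 228 FPKM, Hspa9, a mitochondrial chaperone, at 139, 137 and 138 FPKM, Trp53inp2, Ywhae and Gpc1, with libraries within 1.03-fold.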

How the data were processed

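RNA of sham and volume overload RAs at P21 was sequenced, and only the 3 sham libraries were used; groups and replicate numbers came from the sample titles. Per the submitters' processing notes and the paper's methods, reads were aligned with HISAT2 2.0.5 to GRCm38 and counted with featureCounts 1.5.0-p3. The deposited FPKM values were made by the authors from gene length and counts; the annotation release and the settings for strand and multiple matches were not given in the sources used here.

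From the table, 1 incomplete line was left out. Each FPKM times gene length was a whole multiple of 1 step per library for 100% of values above 0 (tolerance 0.001 fragments), which gave back the fragments. Levels were summarised as mean and SD (n = 3); spread was taken on log2(FPKM + 0.1) in the expressed genes (mean FPKM of 1 or more). The planned count package was not used, because the unit was FPKM, and the biological coefficient of variation was a moment estimate with trimmed-mean library sizes. Shared 100-base stretches, exon overlaps and principal transcripts came from GENCODE M21, whose coordinates were the same for 98.4% of 54039 shared rows. The estimates were checked on simulated data. No p-value was computed. The result for 1 listed marker gene is not reported here.

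Named genes were the 30 most abundant, all genes of the families and lists, the 20 with the widest range at a mean FPKM of at least 5 and the 5 with the smallest SD at 100 or more; Xist, H19, Mgp, Rplp0 and the pseudogene block were added after their values were seen. The genes, families and lists were chosen with earlier results of these data known. Alternatives were other pseudocounts, filters, scalings and units, each library left out, and, added later, removal of the trend with length and the principal transcript length. Python 3.11.15 with numpy 2.4.6, pandas 2.3.3, scipy 1.17.1 and matplotlib 3.10.9 was used.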

Additional observations from a re-analysis of the deposited data

How the results depend on the processing

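No paired analysis was possible because the description covers 1 group of samples. The count of genes at a mean FPKM of at least 1 was 6732 at a minimum of 5, against 11098. The 50 most abundant genes held 28.4% of fragments when ranked by fragments and 24.4% of FPKM without mitochondrial genes, against 47.2%, and 30 of the 50 remained when ranked by fragments. The mitochondrial share was 14.0% by fragments, against 32.0%. Genes at least 2-fold apart numbered 162 with a pseudocount of 1, 1142 at a mean FPKM of at least 0.1, 123 at a mean of at least 5 and 707 with TPM, against 317. With a library left out, the median SD ran from 0.084 (without sham 1) to 0.15, the 2-fold genes from 106 (without sham 1) to 198 (without sham 3), with 171 without sham 2, the genes beyond counting error from 2200 (without sham 1) to 4666 and the biological coefficient of variation from 0.073 (without sham 1) to 0.143. Among the family ratios, 9 changed sign in all: by fragments Kcnj12 over Kcnj2 (-0.21), Hcn2 over Hcn4 (-0.73), Hk2 over Hk1 (-0.053), Ldhb over Ldha (-0.18) and Ppara over Ppard (-0.87); by principal transcript length Hk2 over Hk1 (-0.57) and Ppara over Ppard (-0.92); without sham 1 Hcn2 over Hcn4 (-0.42, and 0.69 without sham 2); and without sham 3 Ppara over Ppard (-0.034, and 0.25 without sham 1); the causes were not tested. The other 236 of the family comparisons moved by no more than 1 SD between libraries, and 63 moved by more in the same direction. Depth limits genes near 1 FPKM, where the median counting CV was 6.91% in the 4366 genes from 1 to 5 FPKM.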

Other observations

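Some abundant or widely used genes were listed far below what their neighbours in the same list showed. Gapdh, a glycolytic enzyme, was listed at 1.42, 1.39 and 0.698 FPKM, while Aldoa and Pgk1 of the same pathway had 484, 429 and 388 FPKM and 215, 159 and 157 FPKM. Tagln, a smooth muscle gene whose exons overlap another gene over 67.9% of their length, was listed at 0.711, 0.496 and 0.340 FPKM, while Acta2 had 154, 136 and 201 FPKM. Mt2, with 73.5% of its exon length overlapped, was listed at 0.656, 0.987 and 0.418 FPKM against 57.9, 51.3 and 48.3 FPKM for Mt1. Over all annotated protein-coding genes, 50.9% of 21805 reached a mean of 1 FPKM, but 0 of 175 whose exons lay wholly within those of another gene and 1 of 96 with an overlap between 90% and 100% did so.

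The non-coding H19, a fetal growth RNA of the imprinted locus that also holds Igf2, was read at 135, 141 and 183 FPKM, while Igf2 itself stood at 3.44, 6.34 and 5.94 FPKM. Extracellular matrix genes had sham 2 highest in 10 of 14, against 27.8% of all expressed genes, among them Col1a1 at 90.3, 150.3 and 121 FPKM.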
